A study of Mus musculus with 4 samples.

Results

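The genes described here are the IL-6 family ligands Il6 and Lif with the related muscle cytokine gene Il15, the receptor genes Il6ra, Il6st, Lifr and Osmr, the transcription factor gene Stat3, and the feedback inhibitor genes Socs3 and Socs2. They were chosen by symbol, and each of the 10 was found once among the 23282 genes of the deposited table. Chromatin-bound RNA was sequenced from C2C12 myotubes, the multinucleated cells that form when this female mouse myoblast line fuses. All cultures had been deprived of steroids. The vehicle group (2 libraries) received vehicle for 2 h, and the dexamethasone group (2 libraries) received 1 µM dexamethasone, a synthetic agonist of the glucocorticoid receptor, for 2 h. C2C12 is a single established line, and the labels do not say that the libraries came from separate cultures, so p-values measure the spread between these libraries, which may be technical.

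Cytokines of the IL-6 family signal through receptor complexes that share the chain gp130, encoded by Il6st. IL-6 first binds its own receptor chain, encoded by Il6ra, whereas LIF uses gp130 with the chain encoded by Lifr, and oncostatin M uses gp130 with the chain encoded by Osmr. The complexes activate Janus kinases, which phosphorylate STAT3, and STAT3 then switches on target genes that include Socs3, whose product binds gp130 and shuts the signal off. SOCS2 is best known as a brake on growth hormone signalling. In skeletal muscle IL-6, LIF and IL-15 are described as myokines, and STAT3 is known for roles in satellite cells and in wasting.

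Library totals ran from 19631435 to 88596296 counts. Libraries with the same replicate number were more alike across genes (Pearson's r of 0.981 and 0.989) than libraries of the same group (0.973 and 0.980), so the values within each number are given beside the main results. Fkbp5, a standard glucocorticoid-induced gene, was 39.8 times higher after dexamethasone (edgeR quasi-likelihood test, Benjamini-Hochberg adjusted p = 0.0429). Nr3c1, the gene of the glucocorticoid receptor, had a log2 fold change of -1.03 (SE 0.251, edgeR adjusted p = 0.430). All 10 myotube markers looked for, such as Ttn, Myh3 and Myog, had enough counts to test. Of 10 markers of other cell types, such as immune, endothelial and epithelial cells, 7 had at most 17 counts in any library and Epcam was at 0. The 3 others, among them Cd68 and Pecam1, summed to between 9.22 and 9.80 CPM (counts scaled to a common library size by the TMM method) in each library.

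The comparison of dexamethasone with vehicle asks which of these genes changed their chromatin RNA within 2 h. The fitted differences of the receptor genes were unlike. The gene of the IL-6 binding chain, Il6ra, was 4.91 times higher after dexamethasone, and the genes of the LIF and oncostatin M chains, Lifr and Osmr, were at 0.545 and 0.610 of the vehicle level. The shared chain gene Il6st and Stat3 were close to the vehicle level, and among the feedback genes Socs2 was 2.55 times higher whereas Socs3 was at 0.754 of the vehicle level with overlapping groups. The ligand genes were scarce in every library.

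None of these differences passed an adjusted p of 0.05 over the 13285 genes tested, where edgeR found 5 genes higher (0.0376%) and 0 lower (0%). Il6ra and Socs2 passed as higher under DESeq2's Wald test, against 1.78% of all genes higher and 0.399% lower, and under edgeR's likelihood ratio test, against 1.83% and 0.339%. Under limma-voom none of the 10 passed. By unadjusted p under 0.05, Il6ra and Socs2 were higher, against 4.09% of all genes, and Lifr was lower, against 1.69%. The dexamethasone libraries were the 2 highest for Il6ra, Socs2 and Il15, 3 of 10 genes against 15.0% of all genes tested. They were the 2 lowest for Lifr and Osmr, 2 of 10 against 12.9%. At least 2 times the vehicle value within both replicate numbers was reached by Il6ra and Socs2, 2 of 10 genes against 1.77% of all genes. The 10 genes were chosen with earlier results of these data known, so these shares are description only. With 2 libraries a group, an exact two-sided permutation test of a single gene cannot go below p = 0.333.

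**Figure D1:**
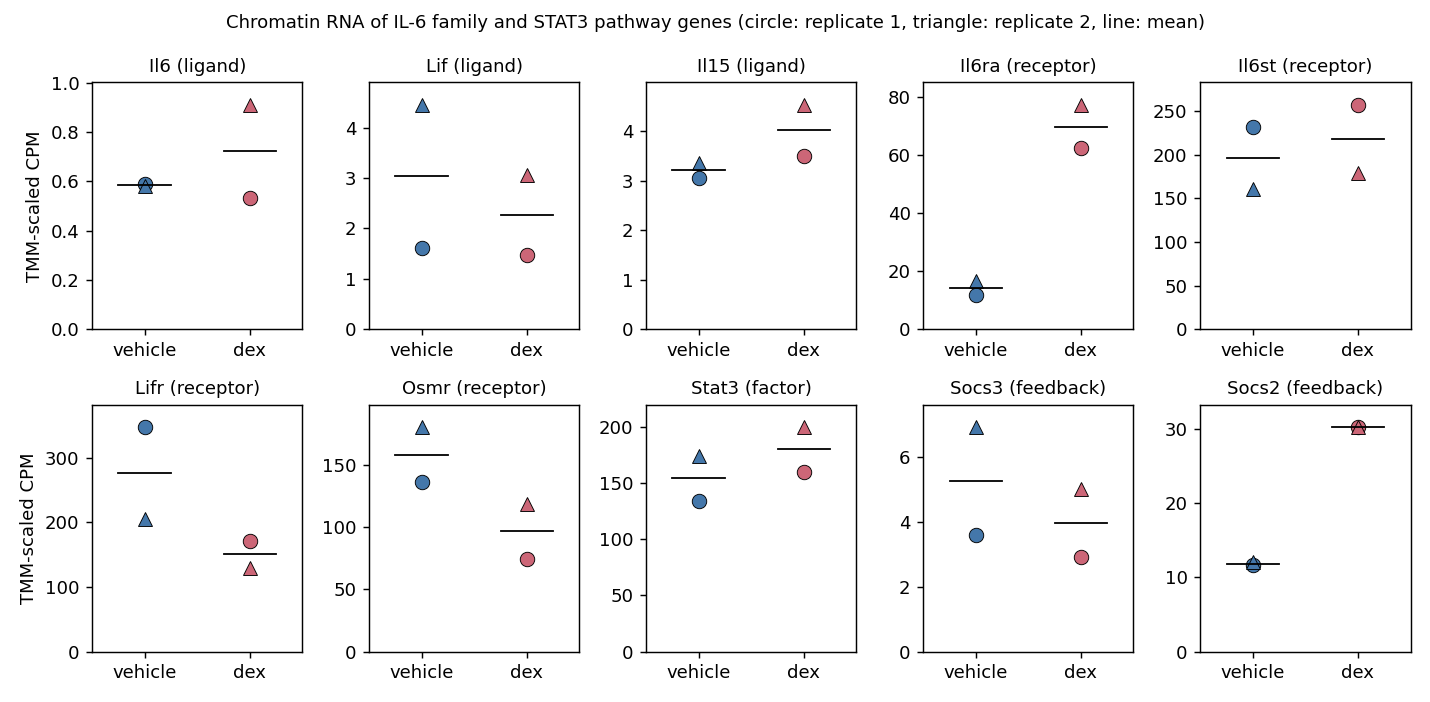
TMM-scaled CPM of each gene (vertical axis, from 0) in the vehicle and dexamethasone libraries, with circles for replicate 1, triangles for replicate 2 and a line at the group mean. Il6ra and Socs2 show the widest separation of the groups, Lifr and Osmr lie lower after dexamethasone, and the groups overlap for Il6, Lif, Il6st, Stat3 and Socs3.

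**Figure D2:**
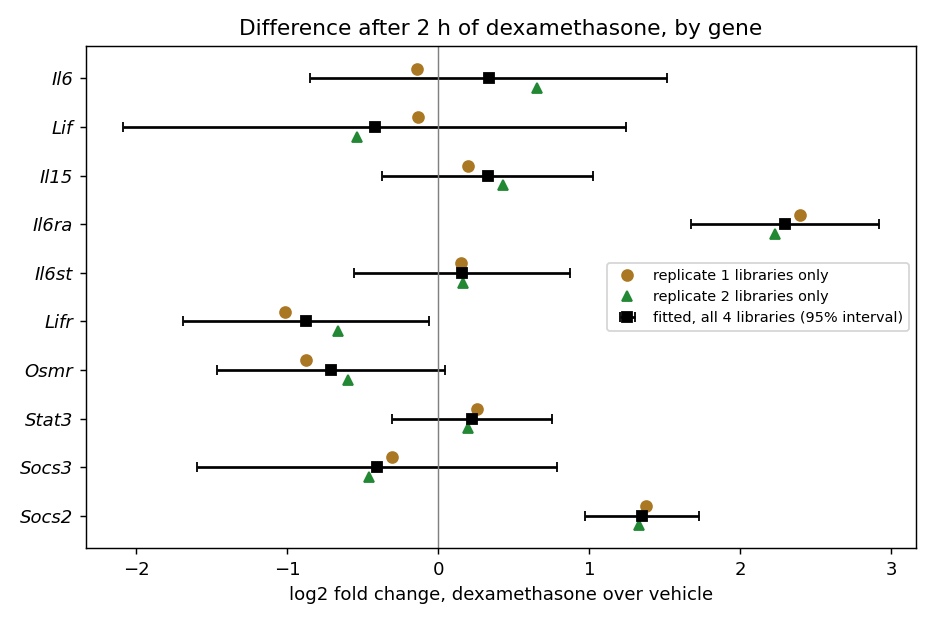
Log2 fold change of dexamethasone over vehicle (horizontal axis) fitted over all 4 libraries with its 95% interval (squares), and the log2 ratio within the replicate 1 libraries (circles) and within the replicate 2 libraries (triangles). The intervals of Il6ra and Socs2 lie above 0 and that of Lifr lies just below it.

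Among the receptor genes, that of the IL-6 binding chain differed most. Il6ra (ENSMUSG00000027947) had 221 and 625 counts in vehicle replicates 1 and 2 and 1867 and 7214 in dexamethasone replicates 1 and 2, or 11.9, 16.5, 62.3 and 77.2 CPM. Both dexamethasone libraries stood far above both vehicle libraries. The means were 14.2 ± 3.26 and 69.7 ± 10.6 CPM (SD, n = 2 each), and the log2 fold change was 2.30 (SE 0.234, 95% interval 1.68 to 2.92). The ratio was 5.25 within replicate 1 and 4.69 within replicate 2. Only 0.617% of the genes tested had a larger absolute log2 fold change. In GENCODE M21 Il6ra overlaps the antisense gene Gm42809 on the opposite strand, which has no row in the deposited table. The strand setting of the counting is not given in the sources used here, and a part of antisense reads in these counts was not tested. For Il6ra the edgeR adjusted p over all genes was 0.123. Under DESeq2's Wald test the adjusted p was 1.56e-13, and it ran from there to 0.235 over the alternatives that used all libraries. Il6ra passed without vehicle replicate 2 (log2 fold change 2.57, edgeR adjusted p 0.00947) and without dexamethasone replicate 1 (2.45, 0.0402), but not without vehicle replicate 1 (2.08, 0.0698) or without dexamethasone replicate 2 (2.13, 0.0596).

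Il6st (ENSMUSG00000021756), the gene of the signalling chain gp130, had 232 and 160 CPM in vehicle replicates 1 and 2 and 257 and 180 CPM in dexamethasone replicates 1 and 2. The groups overlapped, and in each of them replicate 1 was the higher library. The log2 fold change was 0.16 (SE 0.271), with a 95% interval of -0.56 to 0.87, which leaves room for a change of up to 1.83 times. Within a replicate number the ratios were nearly equal, 1.11 and 1.12. The fitted value turned to -0.12 without dexamethasone replicate 1.

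Lifr (ENSMUSG00000054263), the gene of the LIF receptor chain, had 6470 and 7811 vehicle counts and 5140 and 12100 dexamethasone counts in replicates 1 and 2. Scaled, these were 347, 206, 171 and 130 CPM, so that both dexamethasone libraries lay below both vehicle libraries, although vehicle replicate 2 and dexamethasone replicate 1 were not far apart. The means were 276 ± 99.8 and 150 ± 29.6 CPM (SD, n = 2 each). The log2 fold change was -0.88 (SE 0.307, 95% interval -1.69 to -0.06), with an edgeR unadjusted p of 0.0395 and an adjusted p of 0.785. The difference was smallest without vehicle replicate 1, at -0.45, and largest without vehicle replicate 2, at -1.20.

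Osmr (ENSMUSG00000022146), the gene of the oncostatin M receptor chain, had 136 and 180 CPM in vehicle replicates 1 and 2 and 74.3 and 119 CPM in dexamethasone replicates 1 and 2. Both dexamethasone libraries were the lower ones here too. Its log2 fold change was -0.71 (SE 0.285, 95% interval -1.47 to 0.04; edgeR adjusted p = 0.906). The ratio of dexamethasone to vehicle was 0.545 within replicate 1 and 0.659 within replicate 2, next to 0.494 and 0.630 for Lifr. Left-out libraries moved the value of Osmr from -1.09 (without dexamethasone replicate 2) to -0.41 (without dexamethasone replicate 1).

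Osmr and Lifr are neighbours on mouse chromosome 15 in the GENCODE M21 annotation, with 0 protein-coding genes between them. The protein-coding genes on their outer sides, looked up after these values were seen, overlapped between the groups. Rictor, an mTOR complex gene beside Osmr, had a log2 fold change of -0.04 (SE 0.162), and Egflam beside Lifr had one of 0.30 (SE 0.457) at 98 counts or fewer a library.

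A marker of muscle stem cells and myoblasts was also lower in the dexamethasone libraries. Pax7 had 32.0 and 39.0 CPM in the vehicle and 17.9 and 22.9 CPM in the dexamethasone libraries (log2 fold change -0.80, SE 0.201, edgeR adjusted p 0.456). The 5 other myoblast and cycling cell markers (Myf5, Mki67, Top2a, Ccnb1 and Cdk1) overlapped between groups. Their log2 fold changes were all above 0, from 0.07 (Mki67) to 0.30 (Myf5), so that only Pax7 had a lower fitted value. The 6 markers together summed to 56.6 and 61.3 CPM in the vehicle libraries and 42.0 and 49.9 CPM in the dexamethasone libraries. Their part in the values of Lifr and Osmr was not tested. In bulk RNA, fewer cells of a type and less RNA per cell cannot be told apart.

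Ratios of raw counts within a library need no scaling between libraries. Per 100 Il6st counts, Il6ra had 5.12 and 10.3 counts in vehicle replicates 1 and 2, and 24.2 and 43.0 in dexamethasone replicates 1 and 2. Lifr had 150 and 128 per 100 Il6st counts with vehicle, and 66.6 and 72.2 with dexamethasone. Relative to the shared chain gene, Il6ra was thus higher and Lifr lower in both dexamethasone libraries. Osmr had 58.9 and 113 per 100 Il6st counts with vehicle and 28.9 and 66.2 with dexamethasone, so that its groups overlapped on this scale.

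**Figure D3:**
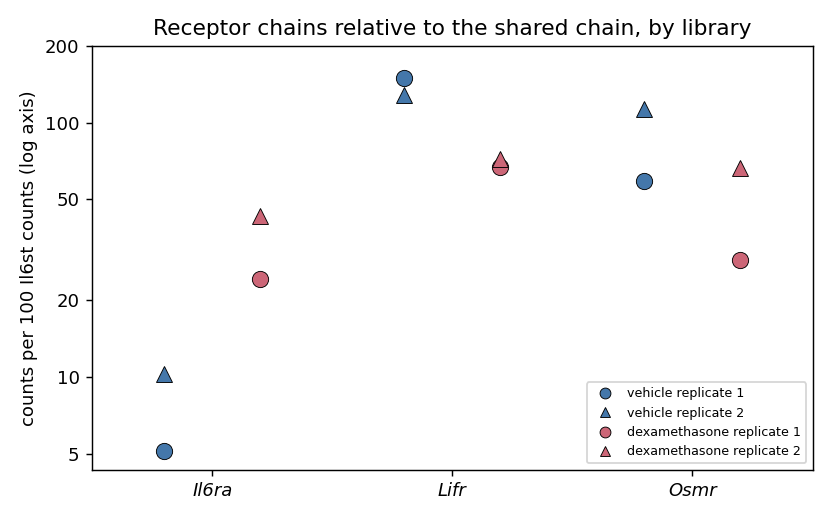
Counts of Il6ra, Lifr and Osmr per 100 Il6st counts of the same library (vertical axis, log scale), with vehicle in blue, dexamethasone in red, circles for replicate 1 and triangles for replicate 2. Il6ra lies higher and Lifr lower in both dexamethasone libraries, and Osmr overlaps between 58.9 and 66.2.

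The promoter windows of Il6ra, Osmr and Lifr, the receptor genes among the 10 with the largest differences, are shown because these genes differed in opposite directions. RefSeq windows (GRCm38.p6, 250 bases before to 50 bases after an annotated start) were found for 8 of the 10 genes, and Lifr has 2 of them, of which the more upstream is printed. They are written on the strand of the gene. Il6ra is the window chr3:89913147-89913446 (minus strand), Osmr chr15:6874264-6874563 (minus strand) and Lifr chr15:7129322-7129621 (plus strand).
Il6ra: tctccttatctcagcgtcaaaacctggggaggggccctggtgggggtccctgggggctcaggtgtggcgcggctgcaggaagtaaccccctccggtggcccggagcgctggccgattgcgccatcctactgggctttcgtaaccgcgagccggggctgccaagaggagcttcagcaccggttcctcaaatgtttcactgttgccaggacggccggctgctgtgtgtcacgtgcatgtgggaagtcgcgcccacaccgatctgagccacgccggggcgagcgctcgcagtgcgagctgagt
Osmr: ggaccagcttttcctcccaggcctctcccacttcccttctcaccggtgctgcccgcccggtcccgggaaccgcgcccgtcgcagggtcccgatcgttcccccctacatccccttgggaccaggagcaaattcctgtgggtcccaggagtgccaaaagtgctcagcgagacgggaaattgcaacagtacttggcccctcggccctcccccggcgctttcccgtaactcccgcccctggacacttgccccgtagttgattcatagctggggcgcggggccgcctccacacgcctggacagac
Lifr: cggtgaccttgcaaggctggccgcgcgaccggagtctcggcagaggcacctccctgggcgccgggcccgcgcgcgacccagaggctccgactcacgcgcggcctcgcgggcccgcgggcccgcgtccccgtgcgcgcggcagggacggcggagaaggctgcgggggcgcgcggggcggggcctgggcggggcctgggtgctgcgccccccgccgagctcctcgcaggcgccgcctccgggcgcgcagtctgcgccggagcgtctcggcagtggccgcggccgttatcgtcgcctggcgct
No capitals appear in them, because none of the motifs searched on both strands was found. These were the glucocorticoid response palindrome (AGAACA and TGTTCT with 3 bases between them), present in 0.00913% of all 32851 windows, its looser form (GNACA and TGTNC with 3 bases between them), which takes in every match of the strict one and is present in 0.475%, and the STAT palindrome TTCNNNGAA, present in 8.30%. The absence of these letters from a window of 300 bases says nothing on binding elsewhere. The Lifr window is 81.3% G and C, and those of Il6ra and Osmr are 66.0% each, against a median of 52.7% over all windows.

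Stat3 (ENSMUSG00000004040), the transcription factor that carries the signal to the nucleus, had 2495 and 6610 vehicle counts and 4796 and 18639 dexamethasone counts. These made 134 and 174 CPM against 160 and 200 CPM. The groups overlapped, with vehicle replicate 2 above dexamethasone replicate 1. For Stat3 the log2 fold change was 0.22 (SE 0.200, 95% interval -0.31 to 0.75; edgeR adjusted p = 1.00), and the ratio was 1.20 within replicate 1 and 1.15 within replicate 2. In GENCODE M21 the end of Stat3 overlaps Stat5a on the opposite strand, and the strand setting of the counting is not given in the sources used here. Stat5a itself had a log2 fold change of -0.14 (SE 0.228).

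The feedback genes differed from one another. Socs2 (ENSMUSG00000020027) had 217 and 457 vehicle counts and 905 and 2820 dexamethasone counts, or 11.64 and 12.04 against 30.18 and 30.19 CPM. Replicates of a group were close together, and the groups were far apart. The means were 11.8 ± 0.285 and 30.2 ± 0.00617 CPM (SD, n = 2 each). Counting error alone was wider than the SD of the dexamethasone group. The exact 95% Poisson intervals were 28.2 to 32.2 CPM for dexamethasone replicate 1 and 29.1 to 31.3 CPM for dexamethasone replicate 2. The log2 fold change was 1.35 (SE 0.143, 95% interval 0.97 to 1.73), with a ratio of 2.59 within replicate 1 and 2.51 within replicate 2. It hardly moved when a library was left out, from 1.33 to 1.38. The edgeR adjusted p was 0.123 over all genes and ran from 1.22e-06 under DESeq2's Wald test to 0.235 over the alternatives that used all libraries.

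Socs3 (ENSMUSG00000053113), the classical STAT3-induced inhibitor of gp130, was far less separated. Its 4 counts were 67 and 262 with vehicle and 87 and 468 with dexamethasone, or 3.59, 6.90, 2.90 and 5.01 CPM. The replicate 2 libraries were the 2 highest, and the groups overlapped. Its log2 fold change was -0.41 (SE 0.450, 95% interval -1.60 to 0.78; edgeR adjusted p = 1.00). It reversed to 0.16 without vehicle replicate 2. Within a library, Socs2 had 324 and 174 counts per 100 Socs3 counts in the vehicle group and 1040 and 603 in the dexamethasone group, so that this ratio was higher in both dexamethasone libraries.

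The Socs3 promoter is shown because Socs3 is the feedback target of STAT3 and the only one of the 8 genes with a window in which the STAT palindrome was found. The match, in capitals, begins 154 bases upstream of the annotated start in the window chr11:117969317-117969616 (minus strand, GRCm38.p6).
Socs3: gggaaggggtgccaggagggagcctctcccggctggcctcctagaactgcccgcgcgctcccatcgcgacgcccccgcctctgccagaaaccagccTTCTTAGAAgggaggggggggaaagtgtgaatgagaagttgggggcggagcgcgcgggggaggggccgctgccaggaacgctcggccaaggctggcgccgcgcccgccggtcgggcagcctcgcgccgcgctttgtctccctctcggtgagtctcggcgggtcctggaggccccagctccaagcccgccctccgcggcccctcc
The palindrome TTCNNNGAA reads the same on both strands, so this is 1 site, and it was found in 1 of 9 windows of these genes against 8.30% of all windows. It is a match of letters and was not tested as a binding site.

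The ligand genes rested on few reads. Il6 (ENSMUSG00000025746), which encodes the founding cytokine of the family, had 11, 22, 16 and 85 counts in vehicle replicates 1 and 2 and dexamethasone replicates 1 and 2. Scaled, these were 0.590, 0.580, 0.534 and 0.910 CPM. Dexamethasone replicate 2 was the highest, and the exact 95% Poisson intervals, which cover counting error only, were 0.294 to 1.06 CPM for vehicle replicate 1 and 0.727 to 1.13 CPM for dexamethasone replicate 2. The log2 fold change was 0.33 (SE 0.447, 95% interval -0.85 to 1.52), and it was -0.13 without dexamethasone replicate 2. No change in Il6 was detected, and the interval takes in values on both sides of 0.

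Lif (ENSMUSG00000034394), the leukaemia inhibitory factor gene, had 30 and 169 vehicle counts and 44 and 286 dexamethasone counts, or 1.61 and 4.45 against 1.47 and 3.06 CPM. The spread between replicates was wider than the difference between groups. Its log2 fold change was -0.42 (SE 0.628, 95% interval -2.09 to 1.24) and reversed to 0.52 without vehicle replicate 2. Il15 (ENSMUSG00000031712), whose product signals through the IL-2 receptor chains and not through gp130, had 57 and 128 counts against 105 and 424, or 3.06 and 3.37 against 3.50 and 4.54 CPM. The dexamethasone libraries were slightly the higher ones. The log2 fold change of Il15 was 0.33 (SE 0.263, 95% interval -0.37 to 1.02). The edgeR adjusted p was 1.00 for Il6, Lif and Il15 alike.

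Levels were compared between genes only after division by length, as CPM per kb of exon in GENCODE M21. In vehicle myotubes the order began with Lifr at 25.6 ± 9.26, Il6st at 17.7 ± 4.55, Stat3 at 16.2 ± 2.99 and Osmr at 13.1 ± 2.56 (SD, n = 2 each). Each of these 4 overlapped its neighbour in the order. After a gap followed Socs3 at 1.82 ± 0.809, Il6ra at 1.64 ± 0.378 and Il15 at 1.42 ± 0.0986. Of these 3, Il6ra overlapped both Socs3 and Il15. Socs2 at 1.24 ± 0.0299, Lif at 0.697 ± 0.462 and Il6 at 0.241 ± 0.00300 did not overlap the gene directly before them in the order. Socs2 did overlap Socs3, at 1.22 and 1.26 against 1.24 and 2.39 in vehicle replicates 1 and 2. This compares library values without their counting error, and Il6 had only 11 and 22 vehicle counts and Lif 30 and 169. The receptor machinery for LIF and oncostatin M was thus more abundant in chromatin RNA than the IL-6 binding chain and all 3 ligands.

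In dexamethasone myotubes the length-scaled level of Il6ra, 8.07 ± 1.22 CPM per kb, overlapped that of Osmr, 7.97 ± 2.60 CPM per kb, and stood under that of Lifr, 14.0 ± 2.75. Socs2 at 3.17 ± 0.000648 CPM per kb was above Il15 at 1.78 ± 0.324 and Socs3 at 1.37 ± 0.516. These dexamethasone levels are per kb of exon, and their order per kb of whole gene was not examined and may differ. Whether introns were counted is not given in the sources used here. Per kb of whole gene the vehicle order was Il6st, Stat3, Lifr, Osmr, Socs3, Socs2, Il6ra, Lif, Il6 and Il15.

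**Figure D4:**
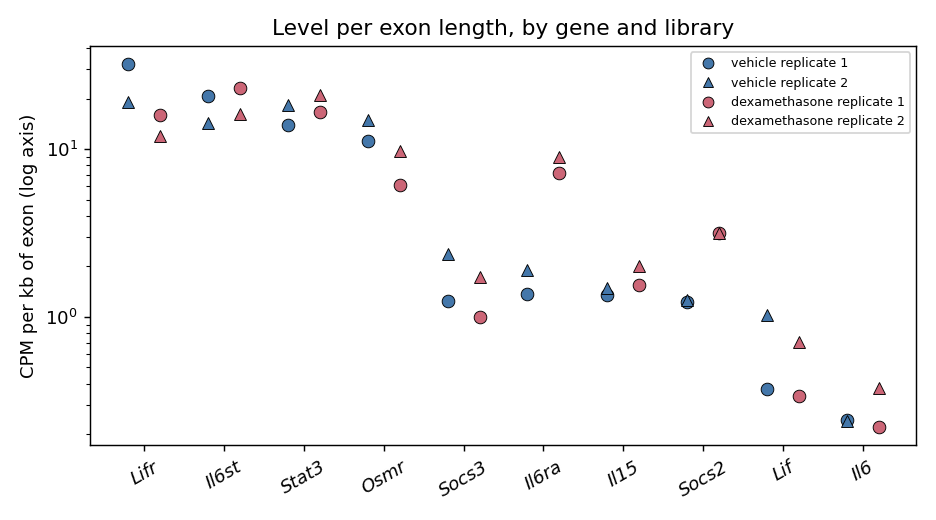
CPM per kb of exon (vertical axis, log scale) for each gene and library, in the order of the vehicle means, with vehicle in blue, dexamethasone in red, circles for replicate 1 and triangles for replicate 2. The mean of Il6ra is 1.64 in vehicle and 8.07 in dexamethasone, where Osmr is at 7.97.

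The genes also differed by replicate number. In 9 of 10 genes, Il6 being the exception, replicate 2 lay on the same side of replicate 1 in both groups, near the 82.4% of all genes tested. Lif was 2.77 times higher in replicate 2 than in replicate 1 in the vehicle group and 2.09 times higher in the dexamethasone group. For Socs3 these ratios were 1.92 and 1.73, and for Osmr 1.32 and 1.60. Il6st, at 0.692 and 0.698, and Lifr, at 0.593 and 0.756, were lower in replicate 2. Summed myotube markers were also lower in replicate 2, at 128604 CPM in replicate 1 and 45467 CPM in replicate 2 of vehicle, and 123900 and 44381 CPM in those of dexamethasone. Most of each sum was Ttn, the titin gene, with 118082 and 41054 CPM in the vehicle libraries. Ckm, Acta1, Actn2, Myh3, Des, Neb and Myog were also lower in replicate 2 of both groups. Their ratios of replicate 2 to replicate 1 ran from 0.130 (Ckm) to 0.480 (Myog) in vehicle. In dexamethasone they ran from 0.153 (Ckm) to 0.514 (Myog). Mymk, at 176 and 173 CPM in the vehicle libraries, was nearly level. Tnnt1 was the higher in replicate 2 of vehicle, at 93.5 and 107 CPM, and level in dexamethasone, at 102 and 101 CPM. The part of the myotube markers in the differences of the 10 genes by replicate number was not tested. Socs2 was nearly level between replicates, with ratios of 1.03 and 1.00.

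A wider set of 76 pathway genes was examined beside these, of which 55 had enough counts to test. None passed over all genes in edgeR, where 4 were higher and 3 lower by unadjusted p, against 4.09% and 1.69% of all genes tested. DESeq2's Wald test passed 2, both higher (Cebpd and Bcl2l1), against 1.78% of all genes. Their median log2 fold change was 0.02, against 0.00 over all genes tested and 0.19 over the 10 genes. The groups did not overlap in 20 of them, with dexamethasone higher in 9 and lower in 11, against 15.0% and 12.9% of all genes tested.

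Among other ligands, 4 of 11 could be tested. Clcf1, the cardiotrophin-like cytokine gene, had 13.46 and 18.8 CPM in vehicle and 7.07 and 13.45 CPM in dexamethasone replicates 1 and 2. Its groups were separated only narrowly, between vehicle replicate 1 and dexamethasone replicate 2 (log2 fold change -0.65, SE 0.377; edgeR adjusted p = 1.00). Osm, the gene of the ligand for the Osmr chain, had 0 counts in 3 libraries and 3 in dexamethasone replicate 2. A count of 0 allows up to 3 counts (one-sided 95% limit, counting error only). Il11 had at most 23 counts in a library.

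Of the other receptors, 6 of 10 were tested, and Ghr, the growth hormone receptor gene, was the most abundant at 968 ± 260 and 1000 ± 205 CPM (SD, n = 2 each; log2 fold change 0.05, SE 0.263). All 4 Janus kinase genes were tested and had log2 fold changes between -0.16 and 0.28. Jak1, the main kinase of gp130 complexes, had 156 and 151 CPM in vehicle and 165 and 156 in dexamethasone libraries, close to level in all of them. Of the 5 other STAT genes tested, Stat5b, which transmits growth hormone signals, was the most abundant and was lower in both dexamethasone libraries (log2 fold change -0.25, SE 0.125, edgeR adjusted p = 1.00).

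Within the inhibitor genes, Socs5 lay on the opposite side to Socs2. It had 79.2 and 101 CPM in the vehicle and 45.0 and 64.4 CPM in the dexamethasone libraries, without overlap (log2 fold change -0.72, SE 0.239; edgeR unadjusted p 0.0328, adjusted p 0.729). The other 3 tested members, Socs4, Socs6 and Socs7, had log2 fold changes between -0.17 and 0.05, and Cish and Socs1 had at most 18 counts in a library. Of 11 other negative regulators tested, Dok1, an adaptor that dampens tyrosine kinase signals, had 3.16 and 4.03 CPM against 6.34 and 8.20 CPM, higher in both dexamethasone libraries (log2 fold change 1.01, SE 0.261; edgeR adjusted p 0.477). Pias2, the most abundant of them, had a log2 fold change of -0.17 (SE 0.122). Among 6 adaptor genes tested, Gab1, a docking protein of gp130 signalling, was lower in both dexamethasone libraries (log2 fold change -0.45, SE 0.136; edgeR adjusted p 0.628) and Gab2, the most abundant, had a log2 fold change of 0.18 (SE 0.153).

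Of 20 genes known as STAT3 targets, 15 were tested, with a median log2 fold change of 0.00. Without overlap between groups, dexamethasone was higher in 5 and lower in 2 of the 15, against the same 15.0% and 12.9% of all genes. Cebpd, a transcription factor gene, had 1.23 and 1.45 CPM against 5.47 and 6.76 CPM (log2 fold change 2.18, SE 0.271, edgeR adjusted p 0.134). Bcl2l1, which encodes the survival protein BCL-xL, had 205 and 223 CPM against 688 and 552 CPM (log2 fold change 1.53, SE 0.168, adjusted p 0.123). Zfp36, the gene of the mRNA-destabilising protein tristetraprolin, had 4.50 and 4.48 CPM against 10.1 and 7.95 CPM (log2 fold change 1.00, SE 0.219, adjusted p 0.350). These 3 are also known as glucocorticoid-responsive genes.

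Bcl3, an NF-kappaB cofactor gene on the same list of STAT3 targets, lay the other way. It had 5.52 and 7.90 CPM in the vehicle libraries and 2.53 and 4.21 CPM in the dexamethasone libraries (log2 fold change -0.99, SE 0.358, edgeR adjusted p 0.815). The list thus held genes on both sides, and 8 of its 15 tested members overlapped between groups. Of the 76 pathway genes, 5 were listed at 0 in every library. Among these, Pias1 on chromosome 9 and Timp1 on the X chromosome stand in runs of 371 and 99 same-strand neighbours that are all listed at 0, so these zeros were not read as silence.

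**Figure D5:**
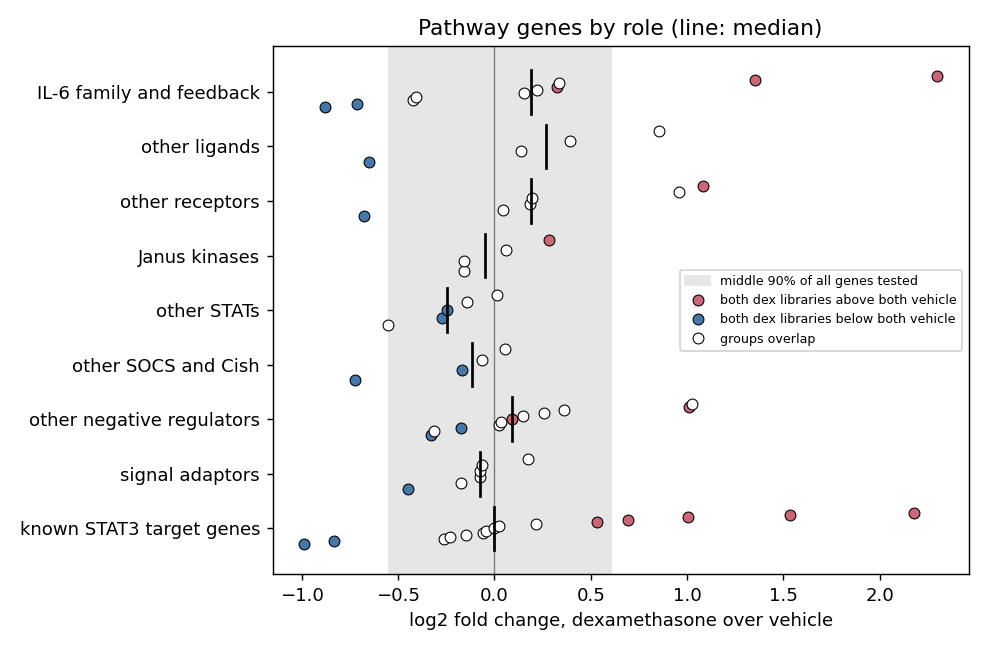
Log2 fold change of dexamethasone over vehicle (horizontal axis) for each tested gene, by role, with filled points where the groups do not overlap, a line at each median and the middle 90% of all genes tested shaded. Il6ra at 2.30, Cebpd at 2.18, Bcl2l1 at 1.53 and Socs2 at 1.35 lie farthest to the right, and Bcl3 at -0.99 and Lifr at -0.88 farthest to the left.

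The 3 tested genes whose log2 CPM profile over the 4 libraries lay closest to that of Il6ra were Gas6, Syk and Cebpd, at Euclidean distances of 0.133, 0.237 and 0.237 after each gene was centred on its own mean. Gas6 had 10.6 and 14.0 CPM in the vehicle and 58.8 and 64.8 CPM in the dexamethasone libraries, and Syk had 1.98 and 3.11 against 12.9 and 16.1 CPM. With 4 libraries, many genes can share such a profile.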

How the data were processed

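Chromatin RNA from 4 C2C12 libraries was analysed from 1 table of raw read counts per gene deposited by the authors. The submitters' processing notes name TopHat2 2.0.13, SAMtools 1.1, HTSeq 0.6.1 and DESeq2 1.18.1 and the build mm9; the annotation and strand setting are not given in the sources used here. The protocols name both a stranded total RNA kit and a stranded mRNA kit. Groups and replicate numbers come from sample titles, and the columns named Control were taken as the vehicle samples.

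Of 23333 rows, 51 repeated an earlier symbol and its counts and were dropped. Genes were filtered with filterByExpr (minimum count 10, minimum total 15) and tested with edgeR 4.0.16 in R 4.3.3 (TMM, quasi-likelihood test, group as the only term, two-sided), with Benjamini-Hochberg adjustment over all genes and a threshold of 0.05. SEs are the log2 fold change over the root of the F statistic, and 95% intervals use 4.56 degrees of freedom. Log2 CPM profiles have a prior count of 2. The test was checked on simulated data. The common biological coefficient of variation was 0.245.

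As alternatives, counts were scaled by DESeq2 size factors, by the upper quartile or by library size only; other settings were no filter beyond 1 count, at least 10 counts in every library, DESeq2 1.42.0, limma-voom (limma 3.58.1), edgeR's likelihood ratio test, the replicate block, a threshold of 0.1, and leaving out each library. The 10 genes and the pathway lists were chosen with earlier results of these data known. Named were the 10 genes, pathway genes with an unadjusted p under 0.05 and no overlap between groups, the most abundant tested gene of each list, Nr3c1, Fkbp5 and the 3 genes closest in profile; other pathway and marker genes, Rictor and Egflam were named after their values were seen. Of the listed genes, 2 stay in the counts and sums but are not reported here by name.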

Additional observations from a re-analysis of the deposited data

How the results depend on the processing

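Against 5 genes higher and 0 lower, with none of the 10 genes or of the 76 pathway genes among them, the DESeq2 alternative had 236 higher (1.78%) and 53 lower (0.399%), and edgeR's likelihood ratio test had 243 (1.83%) and 45 (0.339%). Each of these held 2 of the 10 genes (Il6ra and Socs2) and 2 pathway genes (Cebpd and Bcl2l1), all higher. With no filter beyond 1 count, 23 genes were higher, and limma-voom called 0 (by unadjusted p under 0.05, 540.0 higher and 231 lower); neither called any of the 10. The cause was not tested. No label ties a replicate number to a batch or day. Across genes, replicate 1 minus replicate 2 correlated between the groups (r = 0.734), but with 2 pairs this does not show that the samples are paired. With the replicate block, which leaves 1 residual degree of freedom, 913 genes were higher and 768 lower (6.87% and 5.78%), among them 3 of the 10 genes higher (Il6ra, Socs2 and Stat3, edgeR adjusted p 4.38e-05, 0.000222 and 0.0463), 2 lower (Lifr 0.00196, Osmr 0.00206), 8 pathway genes higher and 7 lower. Over the fits that left out a library, in which the lone library of a group is assumed to vary like the other group, 4 to 84 genes were higher, 0 to 109 lower, 0 to 1 of the 10 genes higher (Il6ra) and 0 to 1 pathway genes higher, the upper ends all without vehicle replicate 2 (Il6ra also without dexamethasone replicate 1). Log2 fold changes of the 10 genes kept their sign in all 100 comparisons with an alternative that used all libraries, and turned in 5 of 40 without a library: the ranges were -0.13 to 0.64 for Il6, -1.06 to 0.52 for Lif, -0.12 to 0.45 for Il6st and -0.87 to 0.16 for Socs3. Depth limits Il6 most, at 11 counts in vehicle replicate 1.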
